A study of Mus musculus with 14 samples.

Results

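The genes of the amyloid precursor protein (App), the prion protein (Prnp) and the secretases that cut them were followed in RNA sequencing of mouse brain. The 9 genes were chosen by symbol, from 43346 genes in the count table, and their rows were read in all 14 mice. They are the substrate gene App, Prnp, the α-secretase gene Adam10, the β-secretase gene Bace1 and the γ-secretase genes Psen2, Ncstn, Aph1a, Aph1b and Psenen. All 9 were found and all 9 passed the filter on low counts in each comparison.

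APP/PS1 mice carry human transgenes, among them APP with the Swedish double mutation, and are a model of Alzheimer's disease. The study asked how CP2, a tricyclic pyrone that partially inhibits mitochondrial complex I, acts in such mice once they have symptoms. The 3 groups sequenced were 23-month-old female mice, all of strain C57BL/6;SJL-Tg: 4 non-transgenic (NTG) littermates, labelled wild type and non-treated, 5 APP/PS1 mice labelled +/+ and non-treated, and 5 APP/PS1 mice labelled +/+ and CP2-treated. CP2 was given at 25 mg/kg/day in drinking water with 0.1% polyethylene glycol from 9 months of age, and the study's methods give the same drinking water without CP2 to the other groups. Each library came from 1 mouse, from a cross-section of brain holding hippocampus and cortex. The promoters that drive the transgenes are not given in the sources used here. Human transgene reads that align to mouse App were not tested for, so App counts in the 10 transgenic mice can hold both.

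Total counts ranged from 70548781 to 106235625 per mouse. Summed striatal markers, which a hippocampal and cortical section should hold at low level, read 2827 CPM (normalized counts scaled to library size) in APP/PS1 mouse 16 and at most 562 CPM in every other mouse. Thalamic markers summed to 280 to 454 in NTG, 147 to 357 in APP/PS1 mice and 283 to 455 CPM in CP2-treated mice. All 6 had lower estimates in APP/PS1 against NTG (1 with an unadjusted p under 0.05, edgeR). All 6 had higher estimates with CP2 against vehicle (4 unadjusted), and 0 passed when adjusted. Choroid plexus markers spanned 22.6 to 936 in NTG, 10.4 to 1337 in APP/PS1 mice and 185 to 730 CPM in CP2-treated mice. The tissue taken can differ between mice and groups, and its part was not tested. Microglial markers ranged from 402 to 420 in NTG, 758 to 1099 in APP/PS1 mice and 646 to 958 CPM in CP2-treated mice, without overlap between NTG and the other groups, while neuronal markers overlapped in all groups at 6143 to 7592 CPM. No marker of these lists was at 0 in any mouse. In bulk tissue, fewer cells of a type and less RNA per cell cannot be told apart.

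Amyloid precursor protein is a membrane protein made mostly by neurons. Cleavage by the α-secretase ADAM10 within the amyloid β sequence precludes the peptide, whereas cleavage by the β-secretase BACE1 followed by the γ-secretase complex releases it. The γ-secretase complex holds a presenilin as its catalytic subunit, nicastrin, an APH1 protein and PEN-2, encoded by genes that include Psen2, Ncstn, Aph1a or Aph1b (in rodents also Aph1c) and Psenen. Prion protein, a glycolipid-anchored surface protein, has been described as a receptor for amyloid β oligomers and is itself shed by ADAM10.

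App and Prnp were by far the most abundant of the 9 genes per length. On the authors' RPKM scale (reads scaled to gene length and library size), App had a mean of 380.4 ± 20.2 (SD, n = 14 mice) and Prnp of 273 ± 14.04. A 10.5-fold step separated Prnp from the next gene, Psenen, at 26.4 ± 2.94 RPKM. Bace1 followed at 18.8 ± 0.964 and Adam10 at 15.6 ± 0.865, and the Bace1 level was 1.11 to 1.26 times that of Adam10 within each mouse. Aph1a (10.6 ± 0.854 RPKM) and Ncstn (10.3 ± 0.713 RPKM) could not be ordered, since Aph1a was the higher in 9 of 14 mice. The lowest levels were those of Aph1b at 4.66 ± 0.617 and Psen2 at 2.49 ± 0.238 RPKM. Apart from Aph1a and Ncstn, each gene was above the next in this order in all 14 mice, and the ranges of neighbours did not overlap. The order depends on the gene lengths used, which were 3128 bases for App, 648 for Psenen and 2863 for Aph1a. The GENCODE annotation used below gives longer exonic lengths for them, 12996, 1275 and 3450 bases. Levels with those lengths were not computed, so the places of these genes hold for the RPKM scale only.

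**Figure D1:**
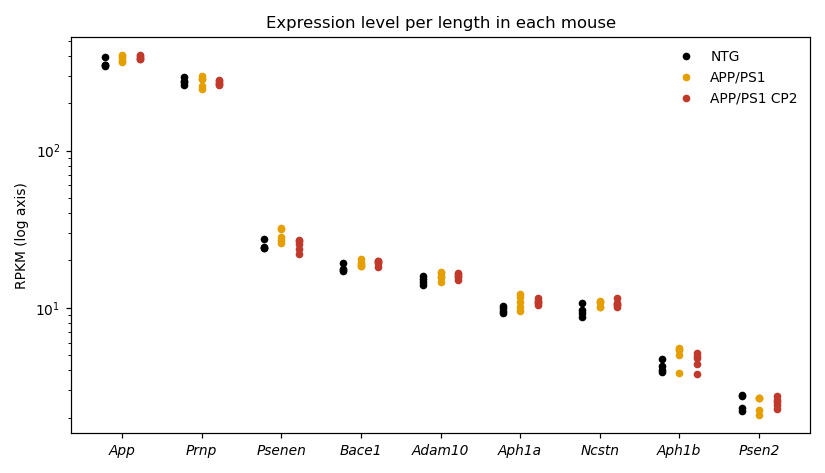
RPKM of the 9 genes on a log axis, 1 point per mouse, coloured by group (NTG, APP/PS1, CP2-treated APP/PS1), with genes ordered by their mean. App (345 to 404 RPKM) and Prnp (247 to 296 RPKM) sit apart from the other 7 genes (2.07 to 32.3 RPKM), and only Aph1a and Ncstn change places between mice.

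App lies on chromosome 16 from 84954440 to 85173707 and Prnp on chromosome 2 from 131909928 to 131938429 of build mm10. The start regions of these most abundant genes are shown with the GC box GGGCGG, the core that Sp1-family factors bind, in capitals on either strand (CCGCCC on the other). Both were taken from RefSeq (GRCm38.p6) and cover 250 bases before and 50 bases after the annotated start. App is on the minus strand at chr16:85173658-85173957 and Prnp on the plus strand at chr2:131909678-131909977.
App: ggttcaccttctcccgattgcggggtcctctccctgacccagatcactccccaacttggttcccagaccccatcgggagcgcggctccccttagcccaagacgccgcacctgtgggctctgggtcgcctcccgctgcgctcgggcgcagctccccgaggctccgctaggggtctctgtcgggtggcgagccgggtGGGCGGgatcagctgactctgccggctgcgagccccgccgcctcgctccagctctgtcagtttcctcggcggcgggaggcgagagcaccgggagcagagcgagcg
Prnp: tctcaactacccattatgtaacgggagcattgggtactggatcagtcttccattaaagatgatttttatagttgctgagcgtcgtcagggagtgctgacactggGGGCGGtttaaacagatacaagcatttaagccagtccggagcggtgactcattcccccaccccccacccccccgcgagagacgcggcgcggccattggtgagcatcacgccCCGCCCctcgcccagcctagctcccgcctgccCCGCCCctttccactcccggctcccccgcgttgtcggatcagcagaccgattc
App held 1 GC box and Prnp 3 in this window. The letters TATAAA, a core TATA box, were searched on both strands and matched in the Prnp window only. This 1 match is on the strand opposite to the gene, so it reads TTTATA in the sequence shown. It lies ahead of the first GC box there. Of 10 windows annotated for 8 of the 9 genes (Bace1 was not matched), 6 (60.0%) held GGGCGG on either strand, against 35.7% of all 32851 windows. TATAAA on either strand was held by 1 of the 10 and by 13.6% of all windows. The median GC content was 61.7% in the genes' windows and 52.7% in all windows. A letter match is not a tested binding site.

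None of the 9 genes passed an adjusted p of 0.05 (edgeR quasi-likelihood test, Benjamini-Hochberg over all genes tested) in any of the 3 comparisons. In APP/PS1 against NTG mice 5.68% of 16417 tested genes passed, with CP2 against vehicle in APP/PS1 mice 0.00609% of 16407, and in CP2-treated APP/PS1 against NTG mice 6.02% of 16416. DESeq2 and limma-voom also called 0 of 9 in each. At an unadjusted p under 0.05, 1 of 9 genes passed in each comparison, where 18.7%, 6.55% and 20.2% of all tested genes did. The 95% confidence intervals of the 9 fold changes stayed within 0.813 to 1.33-fold in the first comparison, 0.781 to 1.16-fold with CP2 and 0.862 to 1.196-fold in CP2-treated against NTG mice. These bounds are the outermost limits over the 9 genes, and the interval of each gene was narrower. On the log2 scale, the interval of Psenen left out 0 in APP/PS1 against NTG and with CP2. That of Aph1a left out 0 in CP2-treated against NTG mice. Where a gene's interval held 0, differences within that interval could not be told from none at this number of mice. Median log2 fold changes of the 9 genes were 0.03, 0.02 and 0.07, beside medians of -0.00421, -0.00596 and -0.00154 over all tested genes. Positive estimates numbered 7, 6 and 6 of 9, where 48.8%, 47.5% and 49.4% of all tested genes had one. The CPM ranges of the groups did not overlap for 0, 1 and 0 of the 9 genes, where this held for 10.04%, 1.14% and 9.61% of all tested genes. Both comparisons with NTG share the NTG mice, and the 2 with vehicle-treated APP/PS1 mice share those.

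**Figure D2:**
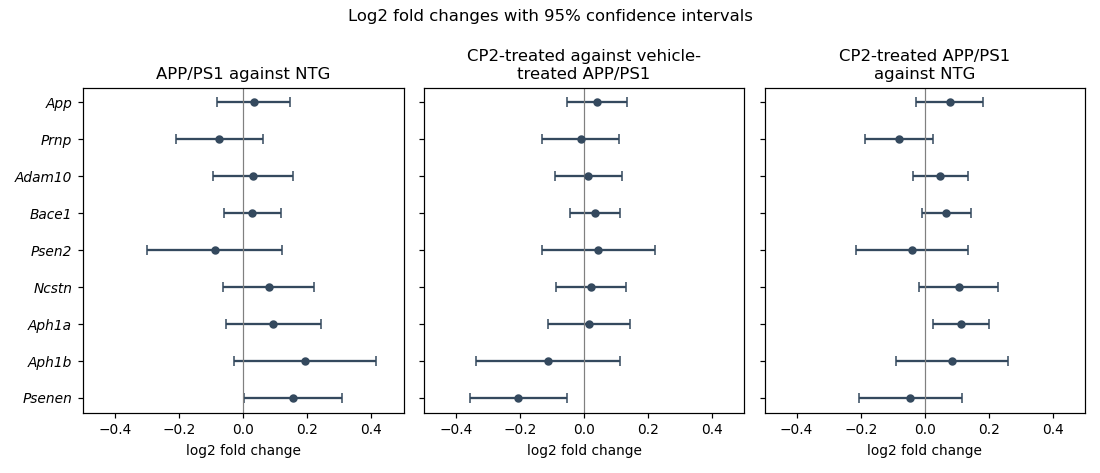
Log2 fold changes of the 9 genes (points) with 95% confidence intervals (bars) from the edgeR fits, 1 panel per comparison, with 0 marked by the vertical line. All estimates lie between -0.20 and 0.19, and the intervals of Psenen in the first and second panels and of Aph1a in the last panel leave out 0.

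App did not differ between groups beyond the spread of the mice. It read 1334, 1421, 1402 and 1489 in NTG mice 7 to 10, 1411, 1454, 1455, 1363 and 1497 in APP/PS1 mice 16 to 20, and 1436, 1417, 1531, 1512 and 1491 CPM in CP2-treated mice 21 to 25. All groups overlapped, with the lowest value in an NTG mouse and the highest in a CP2-treated mouse. The log2 fold change was 0.03 (95% interval -0.08 to 0.15, adjusted p = 0.799) in APP/PS1 against NTG, 0.04 (-0.05 to 0.13, adjusted p = 0.842) with CP2 and 0.08 (-0.03 to 0.18, adjusted p = 0.396) in CP2-treated against NTG mice.

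Prnp read 761, 832, 828 and 827 in NTG, 699.8, 801, 784, 726 and 827 in APP/PS1 mice and 748, 730.3, 815, 786 and 731 CPM in CP2-treated mice. Of the 4 NTG mice, 3 stood close together and above every CP2-treated mouse, APP/PS1 mouse 20 read the same as the lowest of them to 3 digits, and NTG mouse 7 was lower. The log2 fold change against NTG was -0.07 (95% interval -0.21 to 0.06, adjusted p = 0.585) in vehicle-treated and -0.08 (-0.19 to 0.02, adjusted p = 0.383) in CP2-treated APP/PS1 mice. With CP2 against vehicle it was -0.01 (-0.13 to 0.11, adjusted p = 0.972). Neither estimate against NTG passed the test.

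Taken within each mouse, the App level was 1.27 to 1.35 times the Prnp level in NTG, 1.36 to 1.51 times in APP/PS1 mice and 1.41 to 1.53 times in CP2-treated mice on the RPKM scale. The means were 1.30 ± 0.0362 (SD, n = 4), 1.40 ± 0.0628 (n = 5) and 1.45 ± 0.0446 (n = 5). Every NTG mouse was below every transgenic mouse in this ratio, which was formed after the separate values had been seen and was given no test. How often other pairs of genes separate in this way was not counted. Of single genes, 10.04% did not overlap in APP/PS1 against NTG and 9.61% in CP2-treated against NTG mice. The highest APP/PS1 ratio was that of mouse 16, whose striatal markers stood apart. The part that human APP reads and the mix of cell types take in the ratio was not tested.

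Adam10, the main α-secretase of neurons, read 92.2, 93.0, 87.3 and 93.6 in NTG, 86.7, 88.3, 97.2, 92.2 and 101 in APP/PS1 mice and 92.9, 95.3, 92.1, 97.6 and 91.6 CPM in CP2-treated mice. The APP/PS1 mice held both the lowest and the highest value, so that the groups overlapped throughout. Its log2 fold changes were 0.03 (95% interval -0.09 to 0.15, adjusted p = 0.826), 0.01 (-0.09 to 0.12, adjusted p = 0.958) and 0.05 (-0.04 to 0.13, adjusted p = 0.530) in the order of comparisons used above.

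Bace1 had the narrowest spread of the 9 genes, with a coefficient of variation of 2.85% over the 14 mice. NTG mice read 139, 142, 141 and 146 CPM, APP/PS1 mice 141, 140.1, 151, 144 and 144 CPM and CP2-treated mice 150.3, 144, 145, 151 and 148 CPM. Of the NTG values, 3 lay below all CP2-treated values and the other within them. Log2 fold changes were 0.03 (95% interval -0.06 to 0.12, adjusted p = 0.775), 0.04 (-0.04 to 0.11, adjusted p = 0.840) and 0.07 (-0.01 to 0.14, adjusted p = 0.316). The ratio of Bace1 to Adam10 per length, β- to α-secretase, averaged 1.202 ± 0.0362 in NTG, 1.201 ± 0.0557 in APP/PS1 mice and 1.22 ± 0.0334 in CP2-treated mice.

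**Figure D3:**
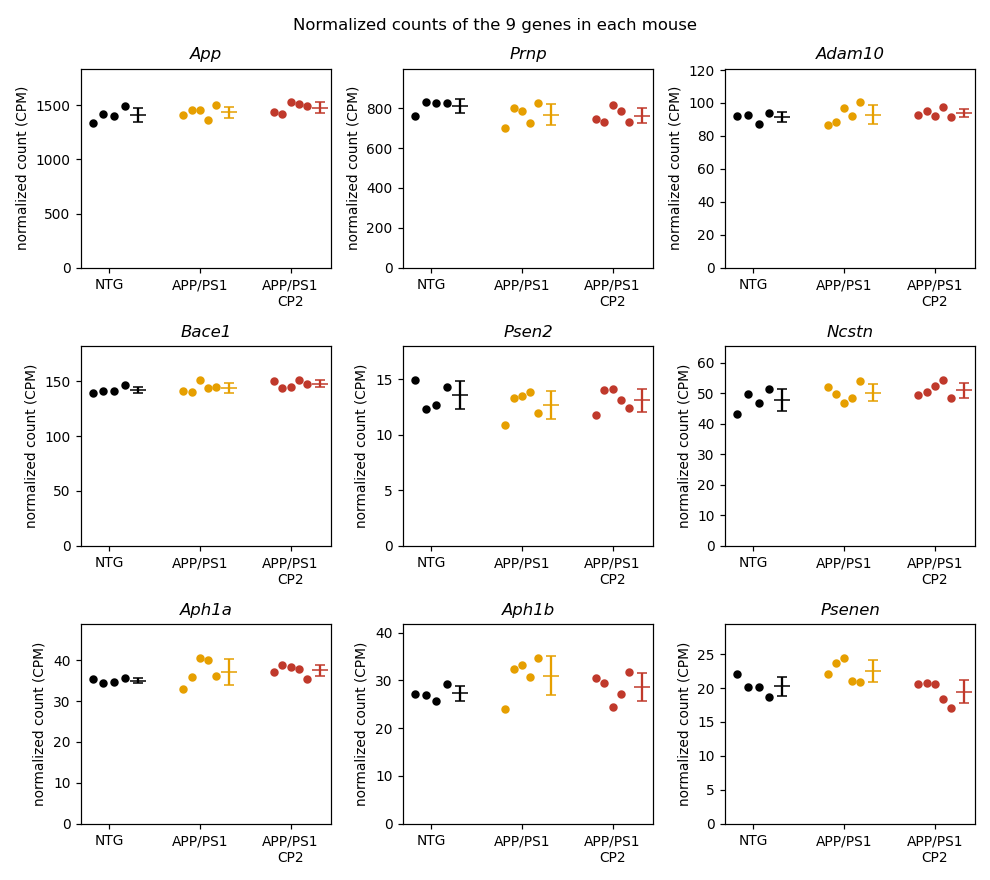
Normalized counts (CPM, axes from 0) of the 9 genes, 1 panel per gene, with 1 point per mouse and the group mean ± SD beside the points (NTG n = 4, APP/PS1 n = 5, CP2-treated APP/PS1 n = 5). Groups overlap in every panel, apart from the CP2-treated mice (17.03 to 20.7 CPM) and vehicle-treated APP/PS1 mice (20.8 to 24.5 CPM) for Psenen.

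Among the γ-secretase genes, the presenilin gene Psen2 read 12.3 to 14.9 in NTG, 10.9 to 13.8 in APP/PS1 mice and 11.8 to 14.1 CPM in CP2-treated mice, with the lowest value in mouse 16. Its log2 fold changes were -0.09 (95% interval -0.30 to 0.12, adjusted p = 0.691) in APP/PS1 against NTG, 0.04 (-0.13 to 0.22, adjusted p = 0.911) with CP2 and -0.04 (-0.21 to 0.13, adjusted p = 0.834) in CP2-treated against NTG mice. Ncstn, the subunit that recognizes the substrate's end, read 43.1 to 51.4 in NTG, 46.8 to 54.1 in APP/PS1 mice and 48.3 to 54.4 CPM in CP2-treated mice. Its log2 fold changes against NTG were 0.08 (95% interval -0.06 to 0.22, adjusted p = 0.569) and 0.11 (-0.02 to 0.23, adjusted p = 0.327), and 0.02 (-0.09 to 0.13, adjusted p = 0.936) with CP2. Neither gene passed the test.

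Aph1a, the APH1 gene with the higher level per length, was nearly constant in NTG mice at 35.4, 34.4, 34.6 and 35.6 CPM. APP/PS1 mice read 33.0, 35.9, 40.6, 40.0 and 36.2 CPM, spanning values below and above all NTG mice. CP2-treated mice read 37.2, 38.9, 38.4, 37.8 and 35.4 CPM, 4 of 5 above all NTG mice. On other scales, compared after seeing the data, these groups did not overlap, with NTG at 32.7 to 35.5 and CP2-treated mice at 36.3 to 39.6 CPM without normalization factors, and at 9.28 to 10.3 and 10.35 to 11.5 RPKM. CP2-treated against NTG mice differed by 0.11 on the log2 scale (95% interval 0.03 to 0.20, unadjusted p = 0.0161, adjusted p = 0.137, edgeR), which did not pass the adjusted threshold. The difference was 0.09 (-0.05 to 0.24, adjusted p = 0.513) in vehicle-treated APP/PS1 against NTG mice and 0.02 (-0.11 to 0.14, adjusted p = 0.961) with CP2.

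Psenen, encoding PEN-2, the subunit that triggers presenilin maturation, had the smallest adjusted p of the 9 genes in both comparisons with vehicle-treated APP/PS1 mice. It read 22.03, 20.1, 20.2 and 18.7 in NTG, 22.1, 23.7, 24.5, 21.01 and 20.8 in APP/PS1 mice and 20.6, 20.7, 20.6, 18.4 and 17.03 CPM in CP2-treated mice. CP2-treated mice all lay below vehicle-treated APP/PS1 mice, with the nearest pair 20.7 and 20.8 CPM, while NTG mice overlapped both. Of all tested genes 0.591% had CP2-treated mice entirely below vehicle-treated mice. The log2 fold change with CP2 was -0.20 (95% interval -0.36 to -0.05, unadjusted p = 0.0123, adjusted p = 0.744, edgeR), and that of APP/PS1 against NTG 0.16 (0.00 to 0.31, unadjusted p = 0.0458, adjusted p = 0.254). CP2-treated and NTG mice differed by -0.04 (-0.21 to 0.12, adjusted p = 0.792). The separation of the CP2 groups depended on the scale, a comparison chosen after seeing the data. Without normalization factors the highest CP2-treated mouse read 21.05 and the lowest vehicle-treated mouse 20.6 CPM, and on the RPKM scale these were 26.9 and 25.9.

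Aph1b varied most, with a coefficient of variation of 11.3% over the 14 mice. NTG mice read 27.2, 26.9, 25.7 and 29.3 CPM, APP/PS1 mice 24.1, 32.3, 33.2, 30.8 and 34.8 CPM and CP2-treated mice 30.5, 29.4, 24.5, 27.2 and 31.8 CPM. Of the APP/PS1 mice, 4 lay above all NTG mice and mouse 16, with its striatal markers, below them all. The log2 fold change of APP/PS1 against NTG was 0.19 (95% interval -0.03 to 0.41, adjusted p = 0.343, edgeR), and without mouse 16 it was 0.27 (adjusted p = 0.0153). Adding the ribosomal RNA share to the model gave 0.31 (adjusted p = 0.211). Aph1b was the only one of the 9 genes called when a mouse was left out. With CP2 it differed by -0.11 (-0.34 to 0.11, adjusted p = 0.824), or -0.19 without mouse 16 (adjusted p = 0.501), and CP2-treated against NTG mice by 0.08 (-0.09 to 0.26, adjusted p = 0.612).

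Rodents hold a close copy of Aph1b, Aph1c, which starts 0.0398 Mb further along chromosome 9, and the counts of these genes are uncertain because reads can match both. A stretch of both coding sequences is shown, the 150 bases with the most differences, from coding base 4 to 153 of the main transcripts in the GENCODE annotation (mm10), with the bases that differ between the genes in capitals.
Aph1b: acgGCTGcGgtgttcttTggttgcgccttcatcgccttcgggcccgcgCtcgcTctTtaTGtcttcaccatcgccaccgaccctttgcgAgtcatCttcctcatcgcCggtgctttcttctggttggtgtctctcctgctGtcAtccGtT
Aph1c: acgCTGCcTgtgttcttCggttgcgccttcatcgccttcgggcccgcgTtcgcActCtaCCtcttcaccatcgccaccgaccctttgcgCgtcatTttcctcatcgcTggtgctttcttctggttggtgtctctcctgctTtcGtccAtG
This stretch holds 18 of the 29 differences over 771 aligned coding bases (96.2% identity, beside 1 gap of 3 bases), so that the rest of the coding sequence is more alike. Of all runs of 101 bases, the read length, in the Aph1b transcript, 9.25% occurred unchanged in that of Aph1c, and 35.9% of runs within the coding sequence did. With up to 2 mismatches allowed, these shares were 24.8% and 47.8%. How reads that match both were counted is not given in the sources used here.

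The ratio of Aph1b to Aph1c counts within each mouse differed more between mice than the summed level. In NTG mice 7 to 10 it was 1.95, 1.89, 2.08 and 2.02. APP/PS1 mice 16 to 20 had ratios of 1.85, 2.72, 2.84, 2.68 and 2.999, and CP2-treated mice 21 to 25 of 2.65, 2.61, 1.85, 1.80 and 2.70. No mouse lay between 2.08 and 2.61, and both transgenic groups held mice on either side, APP/PS1 mouse 16 and CP2-treated mice 23 and 24 among the low ratios. The summed level of both genes was 41.1 ± 2.36 in NTG, 43.0 ± 3.58 in APP/PS1 mice and 41.3 ± 2.215 CPM in CP2-treated mice. Aph1c itself read 12.4 to 14.5 in NTG, 11.5 to 13.0 in APP/PS1 mice and 11.3 to 15.1 CPM in CP2-treated mice, and its log2 fold change in APP/PS1 against NTG was -0.20 (95% interval -0.35 to -0.05, adjusted p = 0.145, edgeR), opposite in sign to that of Aph1b.

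**Figure D4:**
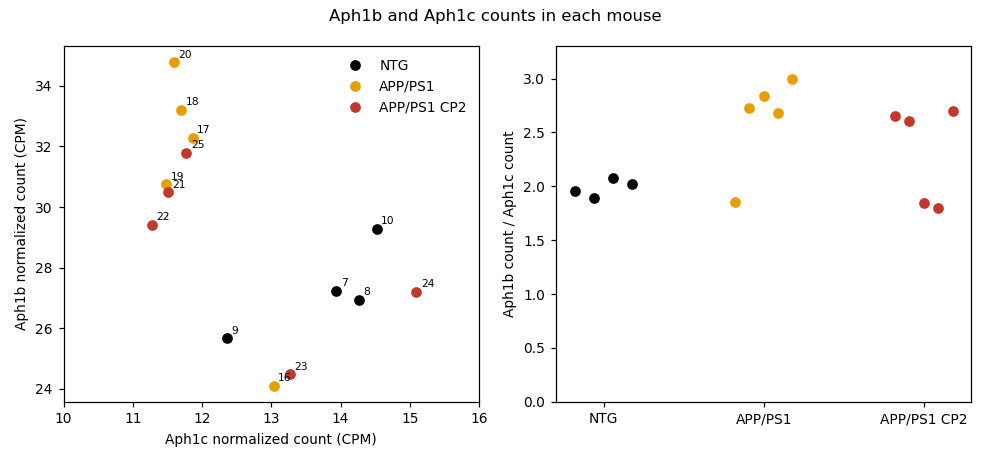
Left, Aph1b against Aph1c normalized counts (CPM; both axes start above 0), 1 point per mouse with its number and coloured by group. Right, the ratio of Aph1b to Aph1c counts by group on an axis from 0. NTG ratios run from 1.89 to 2.08, while in the transgenic groups mice 16, 23 and 24 have ratios of 1.80 to 1.85 and all others 2.61 to 2.999.

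Genes that act with the 9 were read from the same fits. Of 4 other secretase genes (Aph1c, Bace2, Adam9 and Adam17) none passed the adjusted test in any comparison (edgeR; 3, 0 and 0 passed unadjusted, and DESeq2 and limma-voom each called 1 in APP/PS1 against NTG), with median log2 fold changes of 0.19, -0.06 and 0.14 in the same order of comparisons. Adam17, another α-secretase, came nearest, at 18.3 to 20.2 in NTG and 21.5 to 25.5 CPM in APP/PS1 mice (log2 fold change 0.25, adjusted p = 0.0605, or 0.0277 without mouse 16). In this comparison the ranges of 10.04% of all tested genes did not overlap. Of 11 tested genes of App relatives and adaptor proteins 0 passed in edgeR (2, 1 and 3 unadjusted), with medians of 0.01, -0.01 and -0.01. Of all tested genes, 18.7%, 6.55% and 20.2% passed unadjusted in these comparisons, and counts in lists this small do not set them apart. The App paralog Aplp1 read 1229.8 to 1352 in NTG, 1247 to 1305 in APP/PS1 mice and 1123 to 1249.6 CPM in CP2-treated mice. Of the prion relatives Prnd fell under the filter and Sprn, which encodes the Shadoo protein, had log2 fold changes of 0.12, -0.03 and 0.09 without passing the test.

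Among regulators of the secretases, 1 gene of each list read here passed the test against NTG. Counts this small do not set either list apart from all genes. Higher calls made up 4.34% of all genes tested in APP/PS1 mice and 4.56% in CP2-treated against NTG mice. Of 14 genes of secretase trafficking and regulation, 1 was called higher in both comparisons with NTG, the interferon-induced membrane protein gene Ifitm3, whose protein is known to bind γ-secretase. Ifitm3 read 4.54 to 6.80 in NTG, 10.5 to 22.4 in APP/PS1 mice and 9.87 to 16.3 CPM in CP2-treated mice, all above NTG. Its log2 fold change was 1.66 (SE 0.22, adjusted p = 0.00161) in vehicle-treated and 1.24 (SE 0.17, adjusted p = 0.00180) in CP2-treated APP/PS1 against NTG mice. Of 8 tested genes of ADAM10 tetraspanin partners and inhibitors, Sfrp1, which encodes a secreted Wnt antagonist that also inhibits ADAM10, was called, with log2 fold changes of 0.87 (adjusted p = 0.0223) and 0.73 (adjusted p = 0.0425). It read 10.6 to 17.6 in NTG, 16.99 to 29.3 in APP/PS1 mice and 17.9 to 29.3 CPM in CP2-treated mice. The medians of these lists were 0.04 and 0.06 in APP/PS1 against NTG and 0.01 and 0.08 in CP2-treated against NTG mice. The Sfrp1 call in APP/PS1 against NTG mice was lost without any 1 of mice 7, 9, 10, 18 and 19 (adjusted p up to 0.0828), and that in CP2-treated against NTG mice without any 1 of mice 7, 9, 10, 21, 22 and 24 (up to 0.122). The part of microglia and astrocytes in both genes' differences was not tested.

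Of 24 secretase substrates other than App, 1 was called in APP/PS1 against NTG mice, beside 4.34% of all genes called higher, and 2 in CP2-treated against NTG mice, beside 4.56%. Counts this small do not set the substrates apart from all genes. They were the Notch receptor genes Notch4, in both comparisons, and Notch3. Notch4, an endothelial receptor, rose in both comparisons with NTG, with log2 fold changes of 0.66 (adjusted p = 0.00822) and 0.50 (adjusted p = 0.0411), from 5.49 to 7.01 in NTG to 7.70 to 10.4 in APP/PS1 mice and 6.51 to 9.81 CPM in CP2-treated mice. Notch3, a receptor of vascular mural cells, passed the test in CP2-treated against NTG mice (log2 fold change 0.74, SE 0.05, adjusted p = 8.96e-05), at 31.2 to 33.9 against 19.1 to 20.6 CPM. Vehicle-treated APP/PS1 mice read 20.9 to 36.0 CPM for Notch3 (0.55, adjusted p = 0.0838), also above all NTG mice, and passed only in some fits, such as without mouse 16 or 17 (adjusted p from 0.0289 over the fits without 1 mouse). The Notch4 call in CP2-treated against NTG mice was lost without any 1 of mice 7, 8, 10, 21, 22, 24 and 25 (adjusted p up to 0.114). Summed endothelial markers ranged from 159 to 166 in NTG, 152 to 230.5 in APP/PS1 mice and 177 to 199 CPM in CP2-treated mice. Every CP2-treated mouse read above every NTG mouse in this sum. Of the 6 markers, 1 was called higher in APP/PS1 against NTG mice (median log2 fold change 0.14). In CP2-treated against NTG mice 4 of the 6 were called higher (median 0.32). The part of these markers' cells in the Notch3 and Notch4 calls was not tested. The remaining substrates did not pass, and the list's medians were -0.02 and 0.04 against NTG. Of 6 Notch target genes 0 passed in edgeR (2, 0 and 2 unadjusted, beside 18.7%, 6.55% and 20.2% of all tested genes). With CP2 against vehicle 0 genes of these lists were called by edgeR, DESeq2 or limma-voom, and the medians of the lists lay between -0.06 and 0.09.

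The 9 genes did not vary as 1 group across the mice. Over all 14 mice, Pearson's r of log2 CPM between pairs of them ran from -0.38 (Psen2 with Ncstn) to 0.72 (App with Ncstn), and these points share library composition and group. Genes most like App among 16521 were Cltc, the clathrin heavy chain gene (r = 0.93), Wdr7 (0.91) and the importin gene Kpnb1 (0.91). Prnp was most like Ywhab, which encodes a phosphoprotein-binding adaptor (0.93), Rnf14 (0.91) and B3galnt1 (0.91). Bace1 was most like Lrfn3 (0.88), Clip3 (0.84) and Klf7 (0.84). These correlations describe likeness over 14 mice and were given no test.

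Reads were counted on every gene they overlapped, from a library kit that keeps no strand, so a part of some members' counts can belong to a neighbour. In the GENCODE annotation Bace1 shared 975 exonic bases (15.4%) with Rnf214 on the opposite strand, Aph1a 445 bases (12.9%) with Car14, Psenen 119 bases (9.33%) with U2af1l4, Prnp 145 bases (6.19%) with the read-through gene Prn and Ncstn 195 bases (4.91%) with Copa. Psen2, Aph1b and Adam10 shared none with another gene. Copa had a higher mean level than Ncstn, 225 against 49.8 CPM, and Psenen and U2af1l4 had like mean levels, 20.8 and 22.4 CPM. Overlap can weigh more for Ncstn and Psenen than for Bace1, at 144.7 CPM against 70.9 CPM for Rnf214. Car14 and Prn, at 17.5 and 78.5 CPM, also read below the genes they overlap. How many reads fell on the shared bases was not counted.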

How the data were processed

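RNA was extracted from a hippocampal and cortical brain section of each of 14 mice, and the authors made TruSeq v2 libraries, used TopHat2 with build mm10 and ran featureCounts on Ensembl gene models, where a read counts on each gene it overlaps. They deposited raw read counts per gene and RPKM values, computed by the authors and used here only for levels between genes. All 14 count columns matched a label.

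Members and gene lists were chosen with earlier results of these data known. In R 4.3.3, edgeR 4.0.16 (TMM factors, quasi-likelihood test) was fitted on the 2 groups compared, as the study's script did with DESeq2. A gene was tested if all mice of at least 1 group had a robust CPM above 1, and p-values were adjusted by Benjamini-Hochberg over all genes tested, with a threshold of 0.05. Intervals and SE follow from the test statistic. CPM in the text uses TMM factors over 14 mice. Alternatives used DESeq2 1.42.0, limma 3.58.1, other factors and filters, a ribosomal RNA covariate and each mouse left out. On simulated data for the 3 comparisons in order, edgeR recovered 94.4%, 94.0% and 95.5% of genes changed by a log2 fold of 1, with 4.64%, 4.59% and 5.50% false calls. That change is larger than any estimate for the 9 genes, so these rates do not give the power to call them. Replicates differed beyond counting noise in all 26 pairs (lowest chi-square per degree of freedom 10.5). Named were the 9 genes, list genes that passed the threshold or else up to 4 of the highest mean CPM, and the 3 genes most like App, Prnp and Bace1. Of the listed genes, Apbb3 and Clec7a were not matched. A listed gene is not reported here.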

Additional observations from a re-analysis of the deposited data

Results flagged for a closer look

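In NTG mice the Prnp level of mouse 7 was far from those of the others. It read 761 CPM, while the other 3 mice read 827 to 832 CPM, so that the gap made up 0.930 of the whole range, above the 95% critical value of 0.829 for 4 mice. It was the only one of 27 gene and group combinations examined, and chance alone gives about 1 such gap in 20.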

How the results depend on the processing

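In all, 151 of 153, 146 of 162 and 151 of 153 values of the 9 genes under other settings, in the order APP/PS1 against NTG, CP2 against vehicle and CP2-treated against NTG, kept their direction and their side of the threshold. Aph1b was called once, without APP/PS1 mouse 16 (0.27). Estimates near 0 changed sign, and the cause was not tested. For CP2 against vehicle, limma-voom gave -0.0069 for Psen2 and -0.0070 for Aph1a, and the ribosomal RNA covariate gave -0.021 for Psen2, -0.047 for Aph1a and -0.038 for Adam10. Leaving out each mouse gave -0.040 to 0.020 for Prnp, -0.0047 to 0.081 for Psen2, -0.0056 to 0.052 for Ncstn, -0.023 to 0.047 for Aph1a and -0.0097 to 0.046 for Adam10. In APP/PS1 against NTG, the covariate moved Prnp from -0.07 to -0.0090, Adam10 from 0.03 to 0.12, Aph1a from 0.09 to 0.16, App from 0.03 to 0.05, Bace1 from 0.03 to 0.06 and Aph1b from 0.19 to 0.31, with 0 of the 9 called. Other reversals without 1 mouse were Adam10 in APP/PS1 against NTG (-0.00050 to 0.056) and, in CP2-treated against NTG, Psen2 (-0.081 to 0.012) and Psenen (-0.10 to 0.00028).

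DESeq2 called 1667, 23 and 1670 genes and limma-voom 1563 in APP/PS1 against NTG, where edgeR called 932, 1 and 989. For CP2 against vehicle the fit of all 3 groups called 0 and the ribosomal RNA covariate 2. In APP/PS1 against NTG, DESeq2 called 1 App relative or adaptor, 1 other secretase gene, 2 trafficking genes, 3 substrates and 1 Notch target, and limma-voom 2, 1, 2, 2 and 2. There, upper-quartile factors called 1 App relative or adaptor, the fit of all 3 groups 1 such gene, 2 substrates and 1 Notch target, and the covariate 0 ADAM10 partners. In CP2-treated against NTG, DESeq2 and limma-voom each called 2 App relatives or adaptors and 2 Notch targets, the fit of all 3 groups 1 App relative or adaptor and 0 ADAM10 partners, and the covariate 0 ADAM10 partners and 1 substrate.

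Without 1 mouse, 578 to 1474 genes (lowest without NTG mouse 9, highest without APP/PS1 mouse 16) and 0 to 1 of the 9 were called in APP/PS1 against NTG, 0 to 1 genes for CP2 against vehicle (0 without mouse 22), and 572 to 1123 in CP2-treated against NTG, with the lowest count without NTG mouse 9. In APP/PS1 against NTG these fits called 0 to 1 App relatives or adaptors, 0 to 1 other secretase genes, 0 to 1 ADAM10 partners, 1 to 2 trafficking genes, 1 to 3 substrates and 0 to 2 Notch targets. In CP2-treated against NTG they called 0 to 1 App relatives or adaptors, 0 to 1 ADAM10 partners, 1 to 2 substrates and 0 to 1 Notch targets. No paired analysis was possible because the groups share no mouse numbers. Each of the 9 genes had at least 826 counts per mouse.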

Other observations

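The remaining γ-secretase genes had likenesses chosen after their values were seen, each over 14 mice and with no test. Psenen was most like Dazap2 (Pearson's r = 0.94) and the ribosomal protein genes Rpl27a (0.93) and Rps26 (0.93). Ncstn was most like Ppp1r12b (0.95), and Aph1a was most like Chst12 (0.92) and Slc25a1 (0.92).

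The ratio of Aph1b to Aph1c counts fell into 2 sets of 7 mice, from 1.80 to 2.08 and from 2.61 to 2.999, with a gap of 0.534 between them and no other gap over 0.160. The lower set held NTG mice 7 to 10 (1.95, 1.89, 2.08 and 2.02), APP/PS1 mouse 16 (1.85) and CP2-treated mice 23 (1.85) and 24 (1.80). The higher set held APP/PS1 mice 17 to 20 (2.72, 2.84, 2.68 and 2.999) and CP2-treated mice 21, 22 and 25 (2.65, 2.61 and 2.70).

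Some genes near Aph1b on chromosome 9 varied with it across the 14 mice. This look, with its window and threshold, was not planned before the values were seen, and no test was run. Of 40 tested genes that start within 2 Mb, 4 had a Pearson's r of at least 0.7 in size with Aph1b, against 267 of 16480 other genes (1.62%), and genes of a region are not independent points. They were Rab8b, which encodes a small GTPase and starts 0.0685 Mb after Aph1b (r = 0.83), Rasl12 (0.75), Rbpms2 (0.73) and Ankdd1a (-0.87), which start 1.38, 1.15 and 1.27 Mb before it. Ankdd1a read 1.41 to 1.73 CPM in NTG mice, 3.23 CPM in APP/PS1 mouse 16 and 0.710 to 1.18 CPM in APP/PS1 mice 17 to 20. In CP2-treated mice 23 and 24 it read 1.86 and 1.58 CPM, and in mice 21, 22 and 25 it read 0.845, 0.926 and 1.198 CPM. Likeness of this size also occurred outside this window. Farther away on chromosome 9, 20 of 927 genes (2.16%) passed the same threshold, among them Zfp949 (-0.82), Irak1bp1 (-0.79) and Syncrip (-0.79), which start 21.8, 16.1 and 21.7 Mb after Aph1b, and Sema3b (0.81), 40.8 Mb after it. What these values share was not tested.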
